A study of Mus musculus with 4 samples.

Results

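Folate reaches cells through receptors and carriers and is then used as a carrier of one-carbon units. A set of 8 mouse genes of this system was examined: the folate receptors Folr1 and Folr2, the membrane carriers Slc19a1 and Slc46a1, and the one-carbon enzymes Mthfd1, Mthfd2, Shmt1 and Shmt2. The rows were selected on gene symbol, 8 of the 55471 genes in the deposited table, and all 8 were among the 17940 genes that entered the test. The set was chosen with the comparison of these libraries already known, Folr1 being one of the genes called, so the members' own differences are given as a description, and no test of them is read as a result.

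The libraries came from retinas of C57BL6 mice at postnatal day 6 to 7 that carried Gbx2-CreERT2-IRES-EGFP and the Ai9 tdTomato reporter. Every sorted cell was tdTomato-labelled, and the cells were then divided into a GFP-positive fraction, called cell type 2 by the submitters, and a GFP-negative fraction, called cell type 1. Both fractions therefore carried both alleles, and GFP is made from the Gbx2 transcript, so that Gbx2 itself is a check of the sort and not a finding. RNA was taken from 750 to 2500 sorted cells per sample, and 4 biological replicates from 3 litters are described with both sexes represented, of which GFP-positive replicates 2 and 3 and GFP-negative replicates 2 and 6 were analysed here. The labels do not state when Cre was induced.

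Folate receptors are glycoproteins held at the cell surface by a lipid anchor that bind folate tightly and bring it in by endocytosis, while Slc19a1, the reduced folate carrier, and Slc46a1, the proton-coupled folate transporter, move folate across the membrane directly. Inside the cell, the Shmt enzymes move a one-carbon unit from serine onto tetrahydrofolate and the Mthfd enzymes interconvert its oxidation states, with Shmt1 and Mthfd1 in the cytosol and Shmt2 and Mthfd2 in mitochondria. The units are spent on purine and thymidylate synthesis and on the remethylation of homocysteine, and in the eye Folr1 is best known from the retinal pigment epithelium.

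Total counts per library ran from 41040667 to 44689917. Gbx2, a homeobox transcription factor, stood at 602 and 496 CPM (read counts scaled to the library's size) in the GFP-positive libraries, against 28.7 and 55.5 CPM in the GFP-negative libraries, so the labels and the gene behind the GFP allele went the same way. The neuronal gene Pax6, the most abundant gene of the amacrine list, was at 1972 and 1286 CPM in the GFP-positive libraries and 1469 and 2245 CPM in the GFP-negative libraries. Rod genes were present in every library, and GFP-negative replicate 6 had the lowest sum of them. Across all genes, 1.10% were called at an adjusted p under 0.05 by edgeR's quasi-likelihood test, 0.234% higher and 0.870% lower in the GFP-positive fraction, and the libraries of the fractions did not overlap for 43.8% of genes. The p-values measure only the spread between these libraries.

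Folr1 and Folr2 lie next to each other on chromosome 7 and their messages are related, so the sequence that a read could share is given first. The coding sequences of 765 and 753 bases were identical at 547 of 744 aligned bases, or 73.5%. The longest exact run common to both is 20 bases, at positions 103 to 122 of Folr1 and 88 to 107 of Folr2, counted from the first coding base. It is in capitals below with its flanks in lower case, 5′ to 3′, from the GENCODE M21 transcripts.
Folr1: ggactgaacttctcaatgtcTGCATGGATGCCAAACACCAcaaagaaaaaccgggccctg
Folr2: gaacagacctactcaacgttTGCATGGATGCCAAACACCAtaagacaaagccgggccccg
No window of 50 bases in the Folr1 transcript occurred in Folr2, so a read of that length without mismatches can be assigned to one receptor. Of the 1264 such windows in Folr1, 10 were shared with the predicted gene Gm18334, which had 0 counts in all 4 libraries. In Folr2, 655 of 1155 windows were shared with Gm10602, an annotated antisense gene on the opposite strand that covers 63.07% of the exonic bases of Folr2. No source used here gives the strand setting of the counting, so reads from those 655 shared windows cannot be told apart by sequence alone.

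Folr1 (ENSMUSG00000001827, chr7:101858331-101870788, minus strand, GRCm38, 16 annotated transcripts) encodes folate receptor alpha. It had 1500 and 1376 counts in GFP-positive replicates 2 and 3, against 40 and 52 counts in GFP-negative replicates 2 and 6. Scaled to library size this was 32.8 and 28.9 CPM in the GFP-positive libraries, against 0.956 and 1.45 CPM in the GFP-negative libraries. Both GFP-positive libraries were high, both GFP-negative libraries were low but above 0, and the fractions were far from overlapping. The ratio of the mean CPM was 25.6 and the log2 fold change was 4.69 ± 0.52 (SE derived from the fit over all genes, n = 2 per fraction). Because the cells were counted in bulk, fewer cells expressing a gene and less RNA of it per cell cannot be told apart.

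Folr2 (ENSMUSG00000032725, chr7:101839988-101857194, minus strand) encodes folate receptor beta, which is known in mouse and human from macrophages. It had 57 and 47 counts in the GFP-positive libraries, against 0 and 0 counts in the GFP-negative libraries, or 1.25 and 0.988 CPM in the GFP-positive libraries, against 0 CPM in both GFP-negative libraries. It was seen in both GFP-positive libraries at a low level and in neither GFP-negative library. With 3 counts over the GFP-negative fraction as the floor, Folr2 was at least 28.9-fold higher in the GFP-positive fraction. It passed the filter on low counts only through the fraction where it is high. The antisense gene Gm10602 had 14 and 16 counts in the GFP-positive libraries, against 14 and 2 counts in the GFP-negative libraries, so its counts were similar in GFP-positive replicates 2 and 3 and GFP-negative replicate 2 and did not follow those of Folr2.

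The share of Folr2 in the summed counts of both receptors was measured to set the low level of Folr2 against the depth. In GFP-positive replicate 2 it was 57 of 1557 counts, or 3.66% (Wilson 95% interval 2.84 to 4.71), and in GFP-positive replicate 3 it was 47 of 1423 counts, or 3.30% (2.49 to 4.36). In GFP-negative replicate 2 it was 0 of 40 counts, which allows a share of up to 7.5%, and in GFP-negative replicate 6 it was 0 of 52 counts, which allows up to 5.77%. Summed over libraries, the share was 3.49% (2.89 to 4.21) in the GFP-positive fraction, against 0 of 92 counts in the GFP-negative fraction, which allows up to 3.26%. The limits given for 0 counts are 3 counts over the total, whereas the Wilson upper limit for the summed GFP-negative counts was 4.01%. Both limits lie within the summed GFP-positive interval of 2.89 to 4.21. The set was selected on this contrast, and nothing is read from these shares about a difference between the fractions. The intervals and limits cover counting error only.

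**Figure D1:**
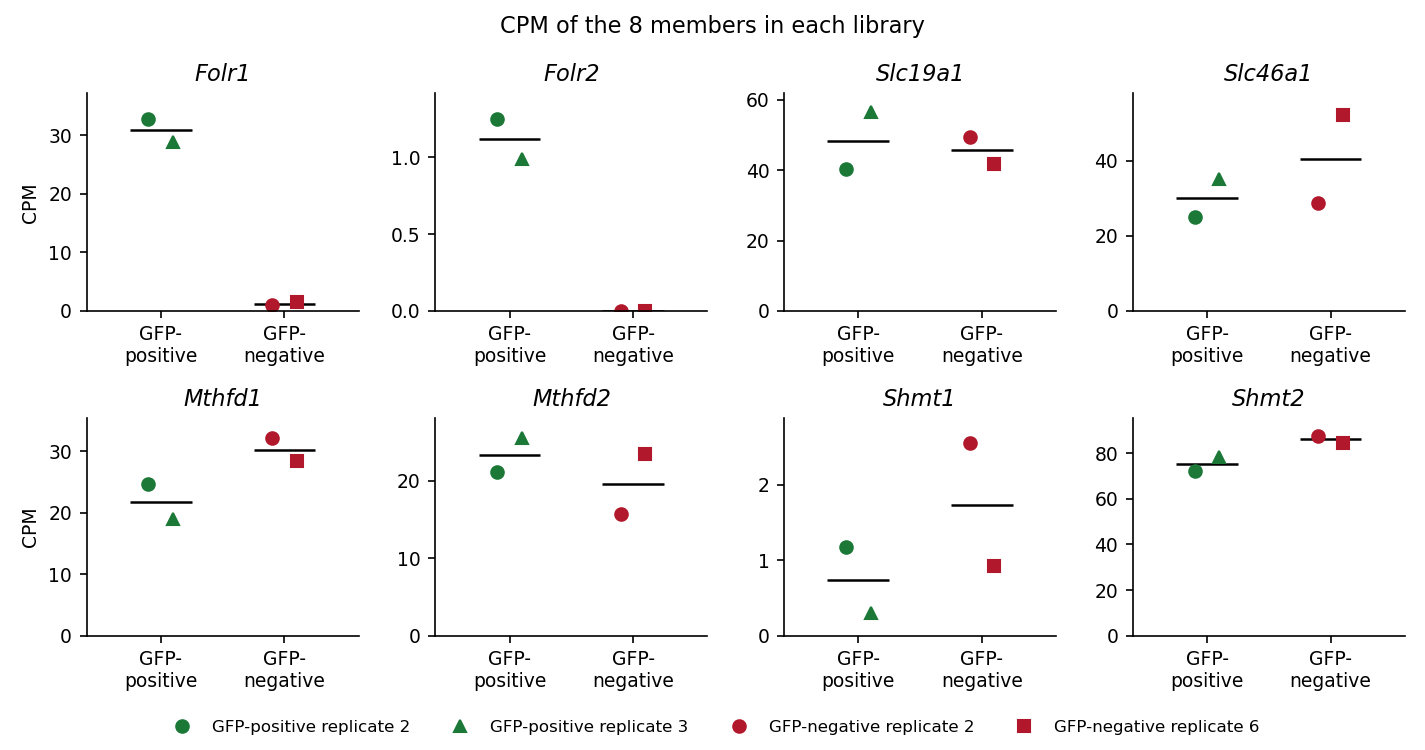
CPM of the 8 members (vertical axes from 0, 1 scale per gene) in the GFP-positive libraries (green, left) and the GFP-negative libraries (red, right), with the mean of each fraction as a black bar. Folr1 stood at 32.8 and 28.9 CPM in GFP-positive libraries, against 0.956 and 1.45 CPM in GFP-negative libraries, and the carriers and enzymes lay within or close to each other's ranges.

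The 2 annotated protein-coding genes on each side of the receptor pair were read in the same way. The receptor genes are 1136 bp apart on the same strand. Anapc15, a subunit of the anaphase-promoting complex on the opposite strand whose gene body overlaps that of Folr1 but shares no exonic base with it, had 11.1 and 8.96 CPM in the GFP-positive libraries, against 9.06 and 7.35 CPM in the GFP-negative libraries, which overlap. Per kilobase of exon, Folr1 was 6.62 and 7.26 times the level of Anapc15 in GFP-positive libraries, against 0.237 and 0.444 times in GFP-negative libraries. Tomt, a transmembrane protein needed by hair cells, was low everywhere, at 0.591 and 0.715 CPM in GFP-positive libraries and 0.359 and 0.391 CPM in GFP-negative libraries. On the other side, the inositol phosphatase gene Inppl1 was at 11.7 and 11.9 CPM in the GFP-positive libraries and 8.13 and 1.73 CPM in the GFP-negative libraries, with GFP-negative replicate 6 far below the others. The homeobox gene Phox2a had 0 counts in all 4 libraries. None of the 3 tested neighbours was called by edgeR's quasi-likelihood test, with Benjamini-Hochberg adjusted p of 0.856 for Anapc15, 0.795 for Tomt and 0.498 for Inppl1.

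**Figure D2:**
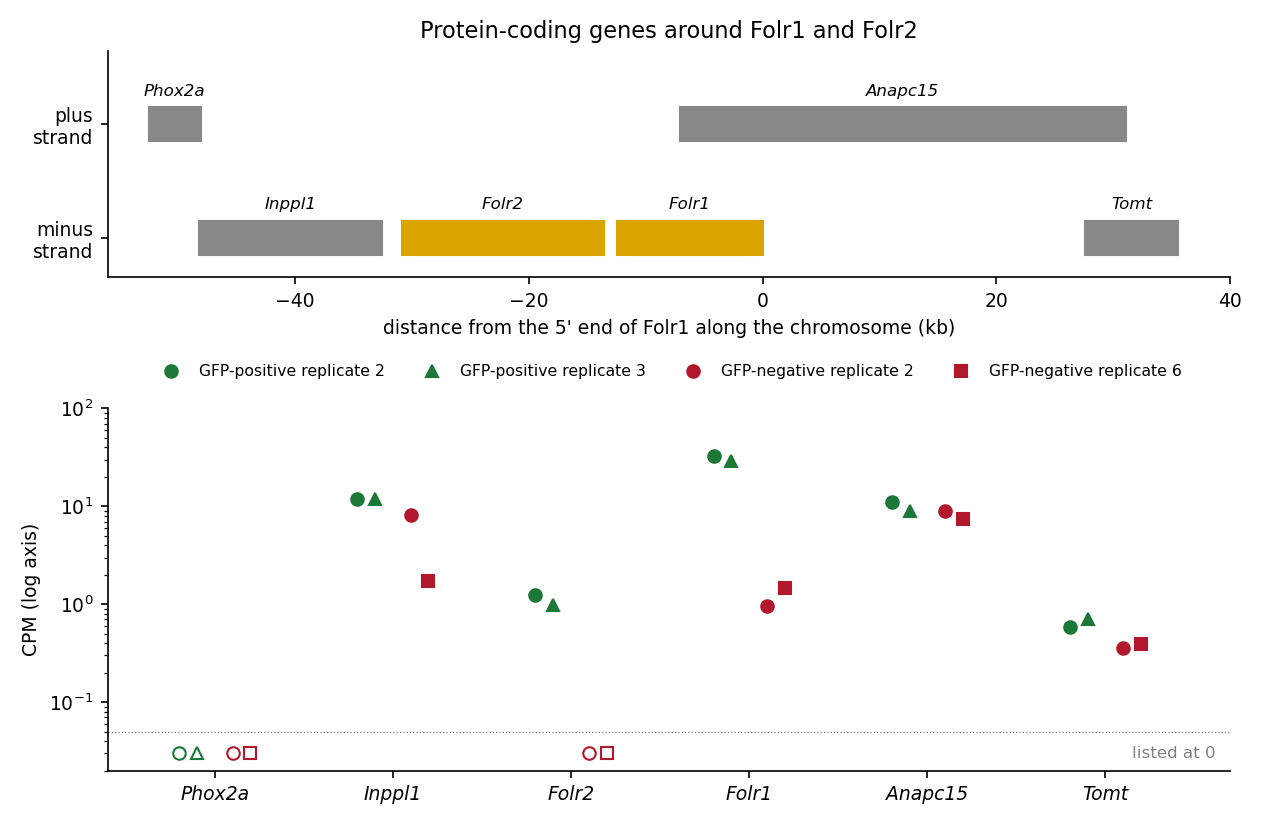
Upper panel, protein-coding genes around Folr1 and Folr2 by strand against distance from the Folr1 start in kilobases; lower panel, CPM of each gene on a log axis in the GFP-positive (green, left) and GFP-negative (red, right) libraries, with open symbols for 0 counts. Anapc15 lay between 7.35 and 11.1 CPM in all libraries, and Folr1 at 32.8 and 28.9 CPM in GFP-positive libraries, against 0.956 and 1.45 CPM in GFP-negative libraries.

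RefSeq promoter windows (250 bases before to 50 after an annotated start, GRCm38.p6) matched 7 of the 8 members, all but Folr1, with 9 windows. The 2 windows of Folr2 are printed 5′ to 3′ on the minus strand because this gene was at 0 in 1 fraction.
Folr2, chr7:101845282-101845581: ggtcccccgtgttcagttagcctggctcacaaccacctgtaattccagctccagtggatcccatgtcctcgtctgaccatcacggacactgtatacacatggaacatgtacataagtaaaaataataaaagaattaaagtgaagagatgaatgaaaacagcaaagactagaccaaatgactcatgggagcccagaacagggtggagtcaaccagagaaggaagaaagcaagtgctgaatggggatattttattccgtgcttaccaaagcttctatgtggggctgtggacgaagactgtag
Folr2, chr7:101857141-101857440: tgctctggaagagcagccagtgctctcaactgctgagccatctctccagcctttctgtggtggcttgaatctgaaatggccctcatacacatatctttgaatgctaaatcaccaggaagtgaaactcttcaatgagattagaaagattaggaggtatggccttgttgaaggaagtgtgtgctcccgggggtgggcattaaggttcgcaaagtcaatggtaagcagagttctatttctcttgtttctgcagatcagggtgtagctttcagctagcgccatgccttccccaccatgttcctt
The Folr2 windows held 5 and 3 CpG dinucleotides, against 13 to 21 in the windows of the other members and a median of 7 over 32851 RefSeq windows. Of 4 motifs searched on both strands, the TATA box (TATAAA) was present in 13.6% of all windows and the CCAAT box (CCAAT) in 37.4%. The core of many homeobox sites (TAATTA) was present in 5.3% and the GC box (GGGCGG) in 35.7%. None of the 4 contains another, and neither Folr2 window held any of them. Among the 9 member windows, 3 held the CCAAT box, 4 held the GC box, and 0 held the TATA box or the homeobox core. The gene counts do not say which Folr2 start was used.

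The carriers were present in every library at similar levels. Slc19a1 (ENSMUSG00000001436, chr10:77032241-77061002) had 40.4 and 56.4 CPM in the GFP-positive libraries, against 49.4 and 41.7 CPM in the GFP-negative libraries. Both GFP-negative values lay between the GFP-positive values, and the log2 fold change was 0.09 ± 0.32 (SE). Slc46a1 (ENSMUSG00000020829, chr11:78465697-78472059) had 25.1 and 35.1 CPM in the GFP-positive libraries, against 28.8 and 52.2 CPM in the GFP-negative libraries. GFP-negative replicate 6 was the highest, the fractions overlapped, and the log2 fold change was -0.43 ± 0.39 (SE). Per kilobase of exon, Folr1 was 1.64 and 1.04 times the level of Slc19a1 in the GFP-positive libraries, against 0.0391 and 0.0704 times in the GFP-negative libraries. In these units the receptor message was at least as abundant as either carrier in both GFP-positive libraries, and far below both in the GFP-negative libraries.

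Of the cytosolic enzymes, Mthfd1 (ENSMUSG00000021048, chr12:76255298-76319803), a protein with 3 catalytic activities on folate-bound one-carbon units, had 24.7 and 18.9 CPM in the GFP-positive libraries, against 32.1 and 28.3 CPM in the GFP-negative libraries. The GFP-positive values were both lower without overlap, with a log2 fold change of -0.47 ± 0.35 (SE). Shmt1 (ENSMUSG00000020534, chr11:60788104-60811718) was scarce, with 54 and 14 counts in the GFP-positive libraries, against 107 and 33 counts in the GFP-negative libraries, or 1.18 and 0.294 CPM in the GFP-positive libraries, against 2.56 and 0.922 CPM in the GFP-negative libraries. The libraries of each fraction differed from each other by more than 2-fold, the fractions overlapped, and the log2 fold change was -1.28 ± 0.98 (SE). Leaving out 1 library moved it to between -2.59 (GFP-positive replicate 2 omitted) and -0.39 (GFP-negative replicate 2 omitted), with -0.58 on omitting GFP-positive replicate 3. A share of 4.81% of the 50-base windows of Shmt1 is also part of Smcr8 on the opposite strand, whereas Slc19a1, Slc46a1, Mthfd1 and Mthfd2 shared 0 windows with other genes.

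Of the mitochondrial enzymes, Shmt2 (ENSMUSG00000025403, chr10:127517123-127522444) was the most abundant member, with 72.0 and 78.1 CPM in the GFP-positive libraries, against 87.5 and 84.7 CPM in the GFP-negative libraries. The GFP-positive values were lower without overlap but by little, with a log2 fold change of -0.20 ± 0.29 (SE). Of its 2240 windows 41 were shared with the predicted gene Gm15544, which had 0 and 0 counts in the GFP-positive libraries, against 0 and 1 in the GFP-negative ones. Mthfd2 (ENSMUSG00000005667, chr6:83305691-83325908) had 21.1 and 25.5 CPM in the GFP-positive libraries, against 15.7 and 23.5 CPM in the GFP-negative libraries. These overlapped, and the log2 fold change was 0.25 ± 0.39 (SE).

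Among the 8 members, 1 was called higher (Folr1) and 0 lower, and for 4 the libraries of the fractions did not overlap, 2 higher (Folr1 and Folr2) and 2 lower (Mthfd1 and Shmt2). These counts stand beside the shares over all genes given above, and nothing is read from them because the set was selected on this contrast. The members' median log2 fold change was -0.06, beside 0.04 over all genes tested. The 6 carriers and enzymes ran from -1.28 to 0.25.

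The members were ordered by level as CPM per kilobase of exon, which allows genes of different length to be compared. In the GFP-positive fraction the mean level was 24.1 ± 1.39 (SD, n = 2) for Shmt2, 13.4 ± 1.19 for Folr1, 10.4 ± 2.43 for Slc19a1, 9.76 ± 2.30 for Slc46a1, 6.68 ± 0.897 for Mthfd2, 4.91 ± 0.915 for Mthfd1, 0.723 ± 0.118 for Folr2 and 0.190 ± 0.162 for Shmt1. Of the neighbours in this order, Slc19a1 and Slc46a1 overlapped, and the other pairs did not. In the GFP-negative fraction the level was 27.7 ± 0.640 (SD, n = 2) for Shmt2, 13.2 ± 5.38 for Slc46a1, 9.81 ± 1.17 for Slc19a1, 6.81 ± 0.598 for Mthfd1, 5.61 ± 1.58 for Mthfd2, 0.524 ± 0.153 for Folr1, 0.448 ± 0.298 for Shmt1 and 0 for Folr2. Here Slc46a1 overlapped with Slc19a1, Mthfd1 with Mthfd2, and Folr1 with Shmt1. Folr1 was thus the member whose place in the order differed most, rank 2 in the GFP-positive fraction and rank 6 in the GFP-negative fraction. Its level exceeded that of 71.8% and 70.3% of 14311 tested protein-coding genes in the GFP-positive libraries, against 13.2% and 19.4% in the GFP-negative libraries.

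**Figure D3:**
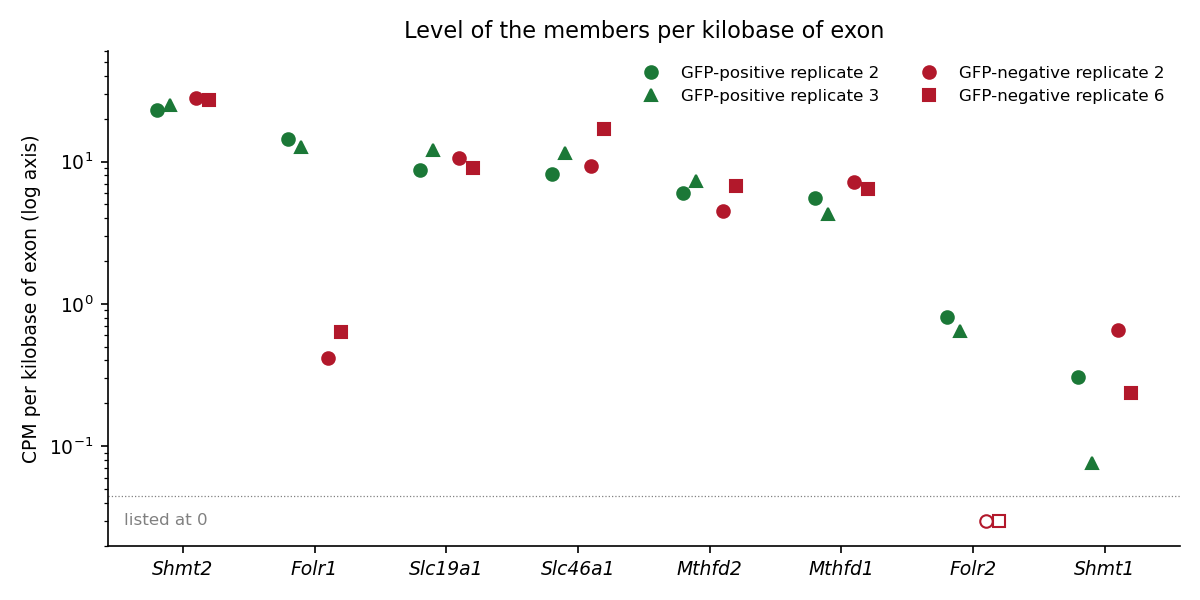
Level of the 8 members in CPM per kilobase of exon on a log axis, ordered by the mean of the GFP-positive fraction, with GFP-positive libraries in green (left) and GFP-negative libraries in red (right) and open symbols for 0 counts. Folr1 averaged 13.4 in the GFP-positive fraction and 0.524 in the GFP-negative fraction, while Shmt2 was the highest member in both, at 24.1 and 27.7.

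The cytosolic and mitochondrial copies of an enzyme were set against each other within each library. Shmt2 was 76.1 and 331 times the per-kilobase level of Shmt1 in the GFP-positive libraries, against 42.7 and 115 times in the GFP-negative libraries. In every library the mitochondrial form was in large excess, and the fractions overlapped. Mthfd2 was 1.09 and 1.72 times the per-kilobase level of Mthfd1 in the GFP-positive libraries, against 0.621 and 1.05 times in the GFP-negative libraries. These forms were near parity, and the ratio was a little higher in both GFP-positive libraries. Mthfd2l, a mitochondrial paralog of Mthfd2 with the same kinds of activity, was 1.04 and 0.794 times the per-kilobase level of Mthfd2 in the GFP-positive libraries, against 1.45 and 0.945 times in the GFP-negative libraries.

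Beyond the members, a list of 24 other folate genes was followed, of which 20 entered the test and Folh1 and Izumo1r had 0 counts in all libraries. By edgeR's quasi-likelihood test 0 of 20 were called. An unadjusted p under 0.05 was found for 2, beside 12.6% of all genes tested, and DESeq2 called 1, beside 4.39% of all genes. Their median log2 fold change was -0.10, and the fractions did not overlap for 3 higher and 7 lower genes, beside 43.8% of all genes in either direction. These counts are near the shares over all genes. The most abundant per kilobase were Gcsh and Gldc of the mitochondrial glycine cleavage system, the lysosomal hydrolase Ggh, the purine synthesis enzyme Gart, Mtfmt, which formylates the mitochondrial initiator tRNA, and Mthfd2l. Gcsh was at 41.6 and 60.8 CPM in GFP-positive libraries and 50.1 and 51.1 CPM in GFP-negative libraries, and Gart at 56.7 and 51.4 CPM in GFP-positive libraries and 59.7 and 59.7 CPM in GFP-negative libraries. Gldc was at 93.4 and 74.0 CPM in GFP-positive libraries and 79.8 and 19.2 CPM in GFP-negative libraries, the last value being that of replicate 6. The remaining 3 had log2 fold changes of -0.42 ± 0.38 (Ggh), -0.06 ± 0.37 (Mtfmt) and -0.09 ± 0.30 (Mthfd2l).

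The genes of that list with an unadjusted p under 0.05 were singled out after their values were seen. Aldh1l1, the cytosolic formyltetrahydrofolate dehydrogenase and a known glial marker, had 0 and 0 counts in the GFP-positive libraries, against 67 and 46 counts in the GFP-negative libraries, at least 45.3-fold lower with 3 counts over the fraction as the floor. Its adjusted p was 0.205 by edgeR's quasi-likelihood test with Benjamini-Hochberg adjustment and 0.0045 by DESeq2. Aldh1l1 passed the filter on low counts only through the fraction where it is high, so nothing is read from these p-values. Atic, which carries out the last steps of purine synthesis, had 3.57 and 2.97 CPM in the GFP-positive libraries, against 10.4 and 10.2 CPM in the GFP-negative libraries, with a log2 fold change of -1.66 ± 0.53 and an adjusted p of 0.249 by edgeR. The fractions did not overlap for either gene, and neither passed the edgeR test. Summed Müller glia markers were 942 and 1164 CPM in the GFP-positive libraries, against 1898 and 2245 CPM in the GFP-negative libraries, with 0 of 10 genes at 0 in any library. Dkk3 carried that difference, since without it the sums overlapped, at 698 and 1033 CPM in the GFP-positive libraries and 890 and 667 CPM in the GFP-negative libraries. Slc1a3 was higher in both GFP-positive libraries, at 125 and 126 CPM, against 107 and 57.4 CPM in the GFP-negative libraries. So was Rlbp1, at 114 and 130 CPM in the GFP-positive libraries, against 110 and 93.1 CPM in the GFP-negative libraries. Clu was lower in both, at 29.44 and 39.98 CPM in the GFP-positive libraries, against 77.72 and 140 CPM in the GFP-negative libraries. Aqp4 was also lower, at 0.722 and 1.39 CPM in the GFP-positive libraries, against 3.11 and 2.49 CPM in the GFP-negative libraries. Apart from these genes and Dkk3, the markers of the list overlapped. Dkk3, which encodes a secreted protein, stood at 244 and 131 CPM in the GFP-positive libraries, against 1008 and 1577 CPM in the GFP-negative libraries, with an adjusted p of 0.0342 by edgeR. That call was lost on omitting GFP-positive replicate 2 (0.13), GFP-positive replicate 3 (0.449) or GFP-negative replicate 6 (0.175), each an adjusted p, and also with no filter and in the legacy fit. Their part in the values of Aldh1l1 was not tested.

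The supply of serine and the methionine cycle were read as lists of 5 and 11 genes. Of the serine list, 0 of 5 tested genes were called by edgeR, 1 had an unadjusted p under 0.05 (12.6% of all genes), DESeq2 called 1 (4.39% of all genes), and the median log2 fold change was -0.24. The gene was Slc1a4, a neutral amino acid transporter that carries serine, at 21.8 and 19.4 CPM in the GFP-positive libraries, against 38.5 and 64.0 CPM in the GFP-negative libraries. The fractions did not overlap, and the log2 fold change was -1.31 ± 0.37 (adjusted p of 0.183 by edgeR and 0.0388 by DESeq2). Psat1, of the serine synthesis pathway, was at 16.8 and 20.2 CPM in the GFP-positive libraries, against 22.2 and 43.0 CPM in the GFP-negative libraries. Phgdh and Psph of the same pathway had log2 fold changes of -0.24 ± 0.59 and 0.09 ± 0.36, and the amino acid transporter Slc1a5 had 0.45 ± 0.76.

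Of the methionine list, 8 of 11 genes entered the test. Of these, 0 were called by edgeR (1.10% of all genes), by DESeq2 (4.39%) or at an unadjusted p under 0.05 (12.6%). The list's median log2 fold change was 0.20. Mat2a, the S-adenosylmethionine synthetase of tissues outside the liver, was its most abundant gene at 747 and 557 CPM in the GFP-positive libraries, against 690 and 364 CPM in the GFP-negative libraries. Its regulatory subunit Mat2b had a log2 fold change of 0.10 ± 0.31 and the S-adenosylhomocysteine hydrolase Ahcy -0.06 ± 0.41. The related Ahcyl1 and Ahcyl2 had -0.14 ± 0.35 and -0.30 ± 0.36, and the transsulfuration enzyme Cth had 0.30 ± 0.57. The liver enzymes Mat1a and Bhmt2 had 0 counts in all libraries.

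A list of 4 genes encodes an endocytic machinery for vitamins, known from the kidney. Of the 4, 0 were called by edgeR (1.10% of all genes), by DESeq2 (4.39%) or at an unadjusted p under 0.05 (12.6%). The scavenger receptor Lrp2 had 197 and 261 counts in the GFP-positive libraries, against 217 and 10 counts in the GFP-negative libraries. Its partners Cubn and Amn had 28 and 0, and 42 and 60, counts in the GFP-positive libraries, against 27 and 28, and 110 and 114, counts in the GFP-negative libraries. The adaptor Dab2 had 0 and 139 counts in the GFP-positive libraries, against 0 and 21 counts in the GFP-negative libraries. The 4 genes were low, and for Lrp2, Dab2 and Cubn libraries of 1 fraction differed by more CPM than the means of the fractions did. Amn and Cubn were lower in both GFP-positive libraries without overlap, beside 43.8% of all genes without overlap in either direction.

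**Figure D4:**
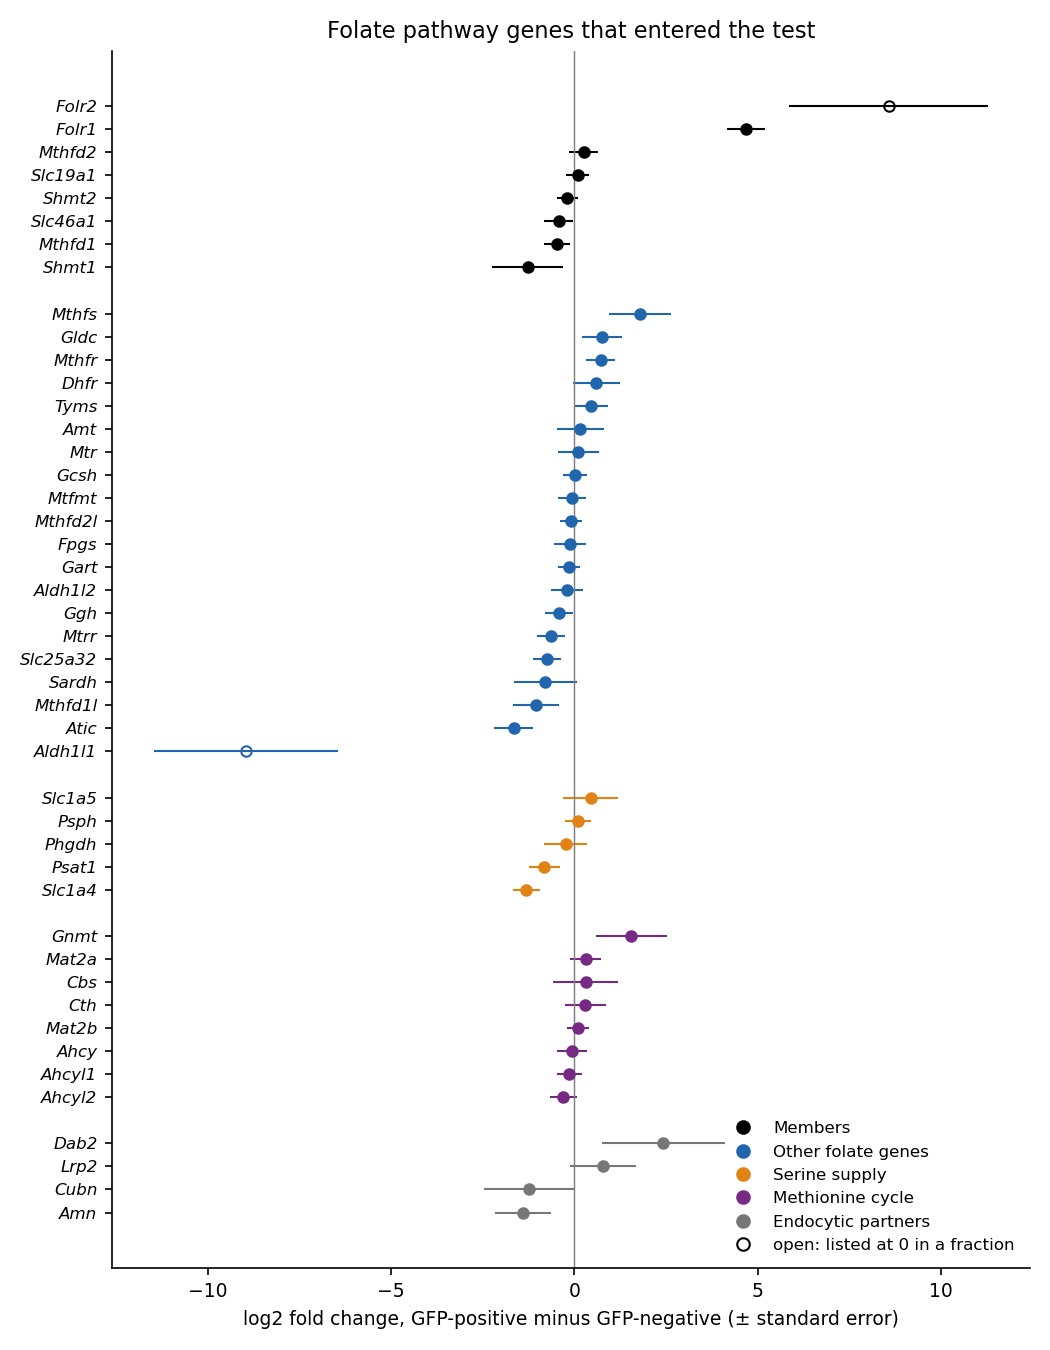
Log2 fold change (horizontal axis, GFP-positive minus GFP-negative, ± SE) of the members and of the other tested genes of 4 lists, with open symbols for genes at 0 in a fraction, whose fitted value depends on the prior count. Folr1 lies at 4.69 and the other members without zeros between -1.28 and 0.25.

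The genes whose pattern over the 4 libraries was nearest to that of Folr1 were found by the Euclidean distance between centred log2 CPM values, among 13865 protein-coding genes. The nearest was Igfbp7, a secreted insulin-like growth factor binding protein, at a distance of 0.252, with 316 and 311 CPM in the GFP-positive libraries, against 8.37 and 14.4 CPM in the GFP-negative libraries. Folr2 itself followed at 0.423, and Calb2, which encodes the calcium-binding protein calretinin, came next at 0.424, with 2098 and 2195 CPM in the GFP-positive libraries, against 84.4 and 143 CPM in the GFP-negative libraries. Tsga10ip stood at 0.554 and Hydin, a component of motile cilia, at 0.629. Tsga10ip had 62 and 70 counts in GFP-positive libraries, against 0 and 0 in GFP-negative libraries, and Hydin had 112 and 98 counts in GFP-positive libraries, against 0 and 1 in GFP-negative libraries. The log2 CPM values were made with a prior count of 2. For Folr2, Tsga10ip and Hydin, at or near 0 in the GFP-negative libraries, the distance therefore depends on that prior. Their fitted log2 fold changes were 8.58, 8.92 and 7.16, beside 4.69 for Folr1. These ranks rest on 4 libraries and on the same contrast as Folr1, and are a description.

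Markers of the cell types in which the receptors are known were read beside the receptor values. The pigment epithelium list of 12 genes summed to 752 and 881 CPM in the GFP-positive libraries, against 683 and 987 CPM in the GFP-negative libraries, and most of each sum was Bsg, which many cells express. Without Bsg the sums were 265 and 280 CPM in the GFP-positive libraries, against 159 and 200 CPM in the GFP-negative libraries. Both GFP-positive libraries were higher. Most of that remainder was Dct and Rlbp1, and Rlbp1 is also in the Müller glia list. Rlbp1 was at 114 and 130 CPM in the GFP-positive libraries, against 110 and 93.1 CPM in the GFP-negative libraries. Dct, a pigment enzyme, was at 140 and 120 CPM in the GFP-positive libraries, against 24.6 and 67.3 CPM in the GFP-negative libraries, and Pmel at 1.05 and 9.80 CPM in the GFP-positive libraries, against 0 and 0.670 CPM in the GFP-negative libraries. Tyrp1 went the other way, with 24 and 76 counts in the GFP-positive libraries, against 255 and 525 counts in the GFP-negative libraries, as did Mitf, with 323 and 468 counts in the GFP-positive libraries, against 677 and 717 counts in the GFP-negative ones. Best1 was at 2.01 and 2.10 CPM in the GFP-positive libraries, against 2.30 and 3.46 CPM in the GFP-negative libraries. Tyr was at 0 in all 4 libraries and Lrat at 0 in both GFP-positive libraries. Rpe65 had 0 and 49 counts in the GFP-positive libraries, against 0 and 1 counts in the GFP-negative libraries. Ttr, which is also made by choroid plexus, had 0 and 244 counts in the GFP-positive libraries, against 2 and 19 counts in the GFP-negative ones. Of the 12 genes, 5 and 2 were at 0 in the GFP-positive libraries, against 5 and 2 in the GFP-negative libraries. The part of these genes in the values of Folr1 was not tested.

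The microglia and macrophage list of 12 genes summed to 39.3 and 124 CPM in the GFP-positive libraries, against 109 and 75.4 CPM in the GFP-negative libraries, with the fractions overlapping. Cd163 was at 0 in all 4 libraries, Mrc1 had 0 and 0 counts in the GFP-positive libraries, against 0 and 8 in the GFP-negative ones, and Csf1r was the most abundant, at 6.89 and 24.9 CPM in the GFP-positive libraries, against 35.2 and 14.8 CPM in the GFP-negative libraries. P2ry12 was lower in both GFP-positive libraries, at 3.3 and 3.2 CPM, against 11.8 and 5.9 CPM in the GFP-negative libraries. So was Cx3cr1, by little, at 6.5 and 6.0 CPM in the GFP-positive libraries, against 6.7 and 7.7 CPM in the GFP-negative libraries. No gene of the list was higher in both GFP-positive libraries. The part of the microglia and macrophage genes in the values of Folr2 was not tested. The endothelial and pericyte list of 11 genes summed to 439 and 439 CPM in the GFP-positive libraries, against 107 and 79.0 CPM in the GFP-negative libraries, of which Igfbp7 made up 316 and 311 CPM in the GFP-positive libraries and 8.37 and 14.4 CPM in the GFP-negative libraries. Without Igfbp7 the sums were 123 and 128 CPM in the GFP-positive libraries, against 98.4 and 64.7 CPM in the GFP-negative libraries. Most of the remainder was Kdr, at 118 and 69.3 CPM in the GFP-positive libraries, against 79.7 and 58.6 CPM in the GFP-negative libraries. Pdgfrb was at 2.89 and 7.93 CPM in the GFP-positive libraries, against 0 and 0.614 CPM in the GFP-negative libraries, and Pecam1 at 0.678 and 0.421 CPM in the GFP-positive libraries, against 1.27 and 0.335 CPM in the GFP-negative libraries. Cdh5 had 0 and 103 counts in the GFP-positive libraries, against 0 and 2 in the GFP-negative ones, and Tek had 0 and 189 counts in the GFP-positive libraries, against 0 and 4 in the GFP-negative ones. Kcnj8 went the other way, with 0 and 0 counts in the GFP-positive libraries, against 26 and 2 in the GFP-negative ones. Rgs5 had 3 and 629 counts in the GFP-positive libraries, against 398 and 127 in the GFP-negative ones. Esam had 15 and 908, against 227 and 39, and Cldn5 had 8 and 509, against 44 and 0, in the same order. For Rgs5, Esam and Cldn5 the fractions overlapped.

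The remaining lists were read in the same way. Rod markers summed to 11450 and 19680 CPM in the GFP-positive libraries, against 10020 and 2447 CPM in the GFP-negative libraries, with the photoreceptor arrestin gene Sag the most abundant. Bipolar markers summed to 1371 and 1920 CPM in the GFP-positive libraries, against 1160 and 509 CPM in the GFP-negative libraries. Of the 16 rod and 10 bipolar genes 0 were called, beside 1.10% of all genes. For the sums of both lists GFP-negative replicate 2 lay near GFP-positive replicate 2, and GFP-negative replicate 6 was far below the other libraries. Prkca of the bipolar list was lower in both GFP-positive libraries, at 88.17 and 101.7 CPM, against 124.9 and 159.4 CPM in the GFP-negative libraries. So was Grik1, at 32.85 and 59.98 CPM in the GFP-positive libraries, against 64.42 and 72.22 CPM in the GFP-negative libraries. Prkca and Grik1 were highest in GFP-negative replicate 6. Cabp5 overlapped, and the other bipolar genes were higher in both GFP-positive libraries. Amacrine markers summed to 2838 and 2042 CPM in the GFP-positive libraries, against 4175 and 6158 CPM in the GFP-negative libraries. By edgeR 4 of 12 tested genes were called lower, beside 0.870% of all genes. They were the GABA synthesis genes Gad1 and Gad2, the transcription factor gene Tfap2c and C1ql2. Adjusted p for these 4 genes ran from 0.0778 (Tfap2c) to 0.295 (Gad1) on omitting GFP-positive replicate 3 and from 0.0711 (Tfap2c and C1ql2) to 0.126 (Gad1) on omitting GFP-negative replicate 6, by edgeR, and Gad1 was at 0.0907 on omitting GFP-positive replicate 2. Tfap2a, Tfap2b, Barhl2, Slc32a1 and Meis2 were also lower in both GFP-positive libraries without overlap, and were not called. Tfap2a was at 14.1 and 16.8 CPM in the GFP-positive libraries, against 41.9 and 51.6 CPM in the GFP-negative libraries. Slc6a9 went the other way, at 85.8 and 74.7 CPM in the GFP-positive libraries, against 54.3 and 31.4 CPM in the GFP-negative libraries. So did Tcf4, at 132 and 221 CPM in the GFP-positive libraries, against 126 and 83.4 CPM in the GFP-negative libraries. Cycling markers were led by the replication clamp gene Pcna. Their sums overlapped, at 93.3 and 95.6 CPM in the GFP-positive libraries and 83.9 and 107 CPM in the GFP-negative libraries. Mki67 was higher in both GFP-positive libraries, at 2.71 and 4.21 CPM, against 0.62 and 0.14 CPM in the GFP-negative libraries. So were Birc5, Top2a, Cdk1 and Tk1, all at low levels. Pcna was lower in both, at 38.8 and 46.9 CPM in the GFP-positive libraries, against 48.8 and 51.6 CPM in the GFP-negative libraries. The other cycling markers overlapped. The part of these lists in the values of the folate genes was not tested.

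**Figure D5:**
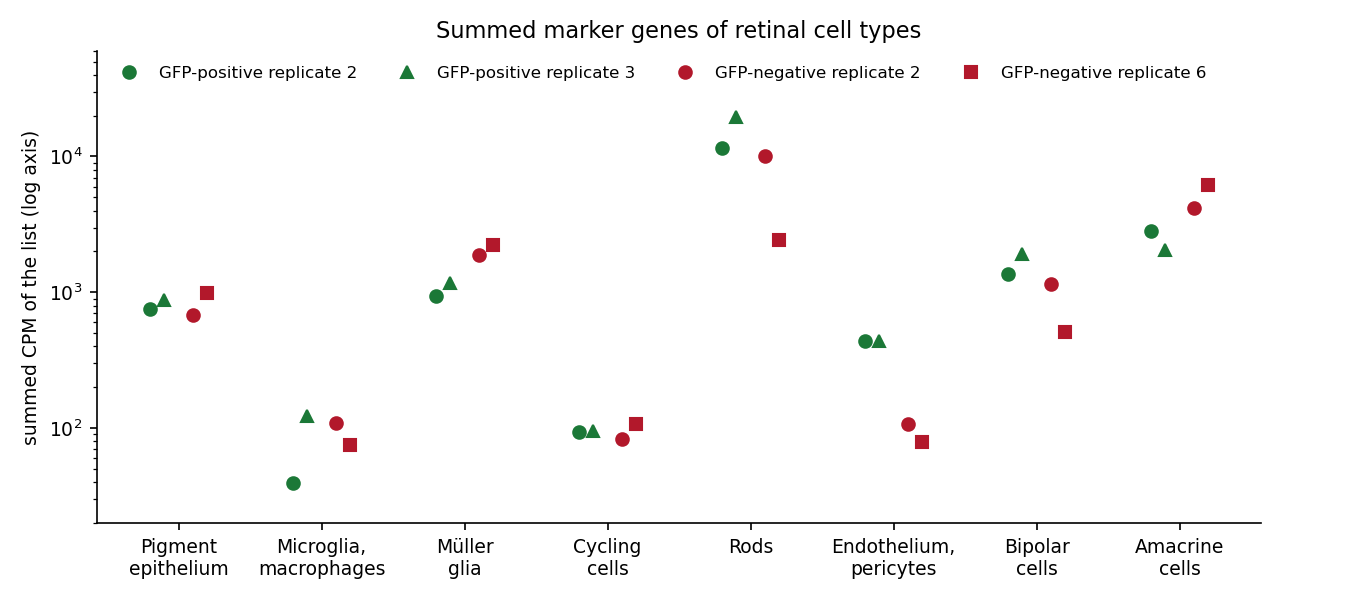
Summed CPM (log axis) of 8 marker lists in the GFP-positive (green, left) and GFP-negative (red, right) libraries. Pigment epithelium, microglia and cycling sums overlapped between the fractions, and the amacrine sum was 2838 and 2042 CPM in GFP-positive libraries, against 4175 and 6158 CPM in GFP-negative libraries.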

How the data were processed

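The members and the gene lists were chosen with earlier results of these data known. The authors deposited raw read counts per Ensembl gene, and the submitters' processing notes name Trimmomatic, STAR 2.7.3a, MultiQC, limma and GRCm38. The counter, its annotation, its strand setting and its handling of reads with several matches are given in no source used here. A second deposited table was not used here.

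Counts were compared with edgeR 4.0.16 (R 4.3.3): TMM scaling, filterByExpr (minimum count 10, total 15), a bias-adjusted quasi-likelihood fit over all 17940 genes passing the filter, and Benjamini-Hochberg adjustment with calls at 0.05. The residual degrees of freedom were 2. The SE of a log2 fold change was its absolute value divided by the square root of the quasi-likelihood F statistic. It therefore draws on spread shared across genes and is not the SE of the libraries of 1 gene alone. The fit was also run on simulated data, the outcome of which is not given here. CPM used effective library sizes, and 3 counts were the floor (0.0631 to 0.0838 CPM per library). An exact permutation test of 2 against 2 libraries cannot go below 0.333 and was not used. Each animal gave a sample of each fraction, per the series text, so libraries of a fraction were taken as separate animals. Replicate 2 of both fractions may be 1 animal, which the sources do not say, and the fit takes these libraries as independent.

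Exonic lengths came from GENCODE M21, which held 55144 of the 55471 gene IDs. Named genes were the members, Gbx2, called genes and the 6 most abundant per kilobase of each pathway list, the 2 flanking genes on each side of the receptor pair, the 5 nearest in pattern to Folr1 and the most abundant marker of each list, of which 1 is not reported here. Other genes named were chosen after their values were seen. The fit was repeated without a filter, with a filter of over 5 CPM in 2 or more libraries, with scaling by RLE, by the upper quartile or by library size, without each library in turn, with limma-voom (limma 3.58.1) and with DESeq2 1.42.0. The legacy quasi-likelihood fit was added after seeing the data.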

Additional observations from a re-analysis of the deposited data

How the results depend on the processing

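The number of genes called over the whole table varied with the test, the filter and the libraries. It was 198 as reported, 106 with no filter, 787 with DESeq2, 131 with limma-voom and 48 with the legacy quasi-likelihood fit, and it ran from 1 to 336 when 1 library was left out (GFP-positive replicate 2 left 108 calls when omitted, GFP-positive replicate 3 left 5, GFP-negative replicate 2 left 336, and GFP-negative replicate 6 left 1). The cause was not tested. DESeq2 called 1 of the other folate genes and 1 serine supply gene. In every other alternative run, leaving out libraries included, the number called among the other folate, serine, methionine and endocytic genes was 0. No paired analysis was possible because the fractions share only 1 replicate number.

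Folr1 kept a log2 fold change between 4.35 and 5.01 over the alternatives but was not called in all of them. Folr2 did not pass the stricter filter. Gbx2 lost its call on omitting GFP-positive replicate 3 (3.83) or GFP-negative replicate 6 (4.26). Shmt1 ran from -2.59 to -0.39. Scaling by library size alone moved the median log2 fold change of all genes to 0.21, from which changes under that scaling are to be read. Slc19a1 was negative on omitting GFP-positive replicate 3 (-0.18) or GFP-negative replicate 6 (-0.03), Slc46a1 was positive without GFP-negative replicate 6 (0.07), and Mthfd2 was negative without GFP-negative replicate 2 (-0.07).

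Some uncalled genes changed sign. With library-size scaling the values were 0.022 for Gart, 0.086 for Mtfmt, 0.078 for Mthfd2l, 0.017 for Ahcyl1 and 0.11 for Ahcy. Gcsh was at -0.00011 with RLE scaling, -0.013 with no filter, -0.00039 with DESeq2 and -0.0059 with limma-voom. With 1 library left out, the ranges that crossed 0 were -0.29 to 0.25 (Gcsh), -0.80 to 0.0094 (Ggh), -0.40 to 0.19 (Mtfmt), -0.12 to 0.26 (Psph), -0.52 to 0.045 (Phgdh), -0.75 to 1.40 (Slc1a5), -0.078 to 0.79 (Mat2a), -0.47 to 0.11 (Ahcyl1), -0.17 to 0.34 (Mat2b), -0.16 to 0.0072 (Ahcy), -0.81 to 0.063 (Ahcyl2), -0.079 to 4.06 (Lrp2), -6.51 to 9.06 (Dab2), -0.59 to 0.058 (Bsg), -1.87 to 0.044 (Csf1r) and -0.55 to 0.15 (Pax6).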
